A study of Mus musculus with 474 samples.

Results

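Nnt, Glo1 and Wdfy1 are 3 mouse genes that were chosen as genes with known structural variants among the inbred founders of outbred stocks. They were taken by gene symbol from the table of 20612 deposited genes, and all 3 passed the filter on low counts that left 18823 genes for testing. RNA-seq was made from skeletal muscle of Diversity Outbred mice, which was the gastrocnemius by the published protocol. Each mouse gave 1 library. These mice descend from 8 founder strains by outbreeding, and no animal shares its mixture of founder segments with another. The sample titles give the sex and a number of 17, 18, 19, 21 or 23, read here as the generation of the stock. Females numbered 48, 45, 49, 46 and 47 in these generations and males 46, 48, 50, 47 and 48, and each mean over all females or all males below is taken over these animals. All animals ate the same high-fat, high-sugar diet, labelled 45 percent fat, so no other diet was compared. Founder genotypes were not analysed here, so no level is assigned to a founder allele.

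Nnt encodes nicotinamide nucleotide transhydrogenase, an enzyme of the inner mitochondrial membrane that uses the proton gradient to make NADPH from NADH, and this NADPH feeds the glutathione and thioredoxin systems that remove peroxides. C57BL/6J, which is both a founder and the reference strain, carries a deletion of several internal Nnt exons. Glo1 encodes glyoxalase 1, which with glutathione clears methylglyoxal, a reactive side product of glycolysis. A duplication that spans Glo1 and reaches into neighbouring genes occurs in some laboratory strains. Wdfy1 encodes a protein with WD repeats and a FYVE domain that binds phosphatidylinositol 3-phosphate on early endosomes and takes part in signalling by Toll-like receptors. The kind of variant at Wdfy1 was not described in the sources used here.

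All 3 genes lie on the minus strand of the GRCm38 mouse genome and are protein-coding. Nnt (ENSMUSG00000025453) was deposited at chr13:119335448-119408997, Glo1 (ENSMUSG00000024026) at chr17:30584936-30626871 and Wdfy1 (ENSMUSG00000073643) at chr1:79702262-79776143. In GENCODE M21 the longest coding transcripts have 17 exons for Nnt, 6 for Glo1 and 12 for Wdfy1. The reference Nnt transcript Nnt-202 carries the C57BL/6J allele, so its exon 7, which ends at 119381676, is joined directly to its exon 8, which begins at 119374774. By prior knowledge of the gene, not read from the annotation, the exons that other strains have belong between both. The joined bases of the reference gene model at this place are shown, and no sequence of another founder was compared. They are given with 15 bases on each side of the join and capitals for the 4 bases on either side of it.
Nnt-202 exon 7 to exon 8: cagctctgattCCAGGTGGttttctggtga

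The deposited expected counts are sums per gene, so reads from the internal exons and reads from the shared exons could not be told apart. All Nnt counts were whole numbers to within 1e-06, while 7.38% of the Glo1 counts and 73.4% of the Wdfy1 counts were. An estimated count is not whole where reads were divided between genes. Glo1 overlaps Dnah8 and Wdfy1 overlaps Mrpl44, and the use of strand in counting was not stated, so reads in the shared stretches are uncertain. No other deposited gene overlaps Nnt.

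Total counts ranged from 35.9 to 165.7 M (mega) per library with a median of 79.3 M. The lowest counts in any library were 2121 for Nnt and 4587 for Glo1, and the lowest level of Wdfy1 was 6.44 CPM (counts per M counts), so no library was near the limit of detection. Levels are given in CPM, scaled by the trimmed mean of M-values (TMM). The 6 muscle fibre markers were present in all libraries, and the sum of the 4 slow-fibre markers ranged from 327.6 to 6544 CPM. The levels of sex-linked genes went against the label of 5 libraries (DO048, DO153, DO193, DO308 and DO347), and the sex differences of the 3 genes are given with and without them.

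The spread of Nnt was ordinary, with an SD of 0.455 on the log2 scale, and 54.96% of all tested genes had a smaller one. Its level ran from 32.8 CPM in a male of generation 21 to 331.2 CPM in a female of the same generation, with a median of 140.8 CPM, and the middle 90% of animals spanned 76.7 to 207.5 CPM. The lower tail was the longer one, with a skewness of -0.79 on the log2 scale. Whether the animals fell into groups depended on the method. The kernel density used here had no inner valley with at least 5 animals on each side, while a narrower bandwidth gave 1 that set the 8 lowest animals apart. A mixture of 2 normal curves, preferred over a single curve by the Bayesian information criterion, placed 7.37% of animals at 70.5 CPM and 92.6% at 142.8 CPM. The largest gap between neighbouring animals, with at least 5 animals on each side, lay between 56.1 and 64.1 CPM and set 8 animals apart. These 8 animals had 32.8, 37.5, 42.7, 48.3, 50.9, 52.2, 55.4 and 56.1 CPM. They were 6 females and 2 males, 4 of them of generation 23 and none of generation 19, and their totals of 57.02 to 80.7 M counts lay inside the range of the other libraries. Glo1, at 127.1 to 190.1 CPM, and Wdfy1, at 17.4 to 24.1 CPM, were within their usual range in these 8 animals. A gap of this size relative to the spread was not unusual, since 80.5% of all tested genes had a smaller one.

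Nnt was lower in males. The mean was 154.6 ± 45.2 CPM (SD) over all females and 129.4 ± 33.4 CPM (SD) over all males, with a log2 difference, male minus female, of -0.26 (SE 0.04, edgeR's quasi-likelihood test, adjusted p = 6.67e-10). Both sexes overlapped over most of the range. As background, 30.6% of all tested genes were lower in males and 24.4% were higher. The difference was the same without the 5 libraries against their label (-0.26, adjusted p = 7.19e-10). It was negative within each of the 5 generations (-0.33 to -0.21) and within each of 5 blocks of consecutive library numbers (-0.39 to -0.09), and was not called within generation 23 (adjusted p = 0.116) or within blocks 3 and 5 (adjusted p = 0.48 and 0.0782). All 4 slow-fibre markers were also lower in males, with a median log2 difference of -0.55. With scores of slow-fibre and adipocyte markers as covariates, chosen after seeing the data, the Nnt difference was -0.11 (SE 0.04, adjusted p = 0.0257). In bulk RNA, fewer cells of a type and less RNA per cell cannot be told apart.

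Nnt did not differ detectably between generations. Median levels were 147.4, 142.2, 140.9, 141.02 and 138.4 CPM in generations 17, 18, 19, 21 and 23, and the range of the fitted means was 0.04 on the log2 scale (edgeR, adjusted p = 0.981). Of all tested genes, 7.56% differed between generations. The sex difference did not differ between generations either (interaction, edgeR, adjusted p = 1, with 0.531% of genes called). Sex accounted for 7.06% of the variance of the log2 level, generation for 0.303% and the block of library numbers for 0.665%.

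Since the density used here had no valley, low and high Nnt levels were counted at 1.5-fold from the median. There were 54 low animals, or 11.4% (95% Clopper-Pearson interval 8.68 to 14.6%), and 19 high animals, or 4.01% (2.43 to 6.19%). The animals nearest to the lower boundary had 93.3 and 94.1 CPM, and those nearest to the upper boundary had 211.03 and 212.3 CPM. Low animals made up 10.6, 10.8, 11.1, 7.53 and 16.8% of generations 17, 18, 19, 21 and 23, and high animals 3.19, 5.38, 2.02, 2.15 and 7.37%. Generation 23 had the largest share at both ends, but the shares did not pass the test between generations (permutation test of the chi-square statistic, p = 0.254, adjusted over the 3 genes 0.276). All 19 high animals were labelled female, while 19 labelled females and 35 labelled males were low. The permutation p for the sexes was 1e-05, the smallest that 100000 permutations can give (adjusted p = 3e-05). DO347, 1 of the 19, is among the 5 libraries whose sex-linked genes went against the label. Without these 5 libraries, and with the boundaries set again, 19 animals were high, again all labelled female, and the permutation p was again 1e-05. The sexes did not pass the test with groups from the narrower bandwidth (adjusted p = 0.254), from the mixture (adjusted p = 0.0556) or at 2-fold from the median (adjusted p = 0.624). The 19 high animals had a median slow-fibre marker sum of 2471 CPM, against 1783 CPM in the middle animals and 1425 CPM in the 54 low animals.

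**Figure D1:**
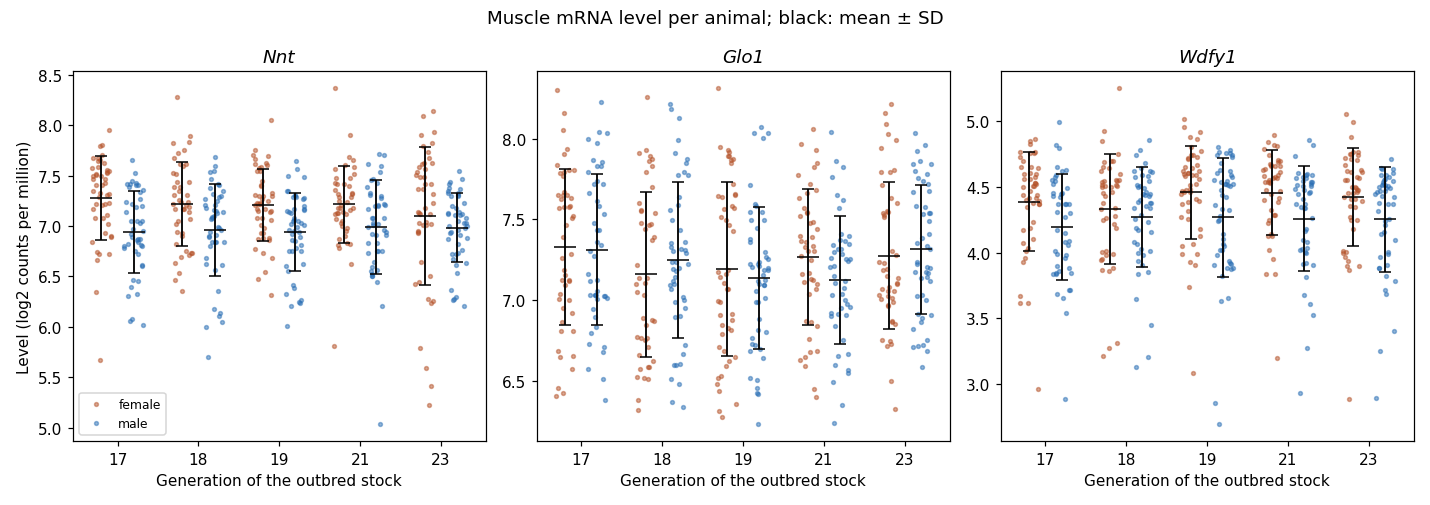
Level of each gene in log2 CPM (y axis) by generation (x axis) in females and males, with 1 point per animal and black bars for the mean ± SD of each group of 45 to 50 animals. Female means of Nnt and Wdfy1 lie above male means in all 5 generations, while the means of Glo1 follow no such order.

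**Figure D2:**
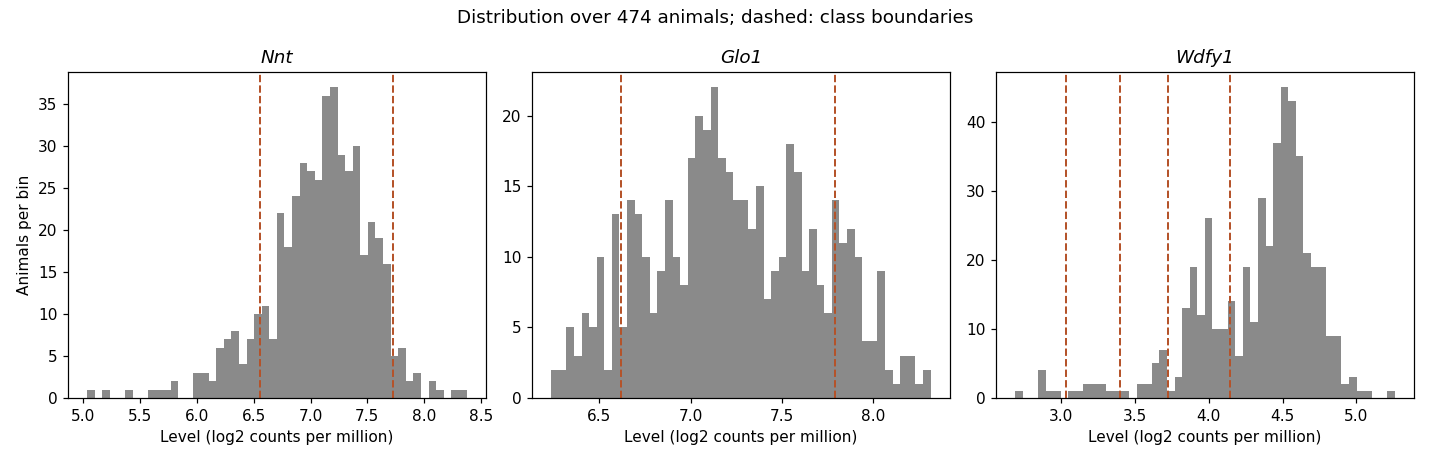
Number of animals (y axis) per bin of log2 CPM (x axis) for each gene over all animals. Dashed lines are the boundaries used for counting, which are 1.5-fold from the median for Nnt and Glo1 and valleys of the density for Wdfy1, where the 3 lowest boundaries divide off groups of 7, 10 and 17 animals.

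The relation of each gene to all others was measured as a slope, the change in another gene's VST score (the authors' variance stabilising transform, which is near a log2 scale for high counts and compressed for low ones) per unit of the VST score of Nnt, Glo1 or Wdfy1, with sex and generation as covariates (limma, adjusted over 18822 genes). Against Nnt, 913 genes were called (4.85%), 2.91% of all with a positive slope and 1.94% with a negative one. The top 5 by moderated t all lay on other chromosomes and all had positive slopes. Idh2, the mitochondrial isocitrate dehydrogenase that also makes NADPH, came first with a slope of 0.33 (SE 0.03, adjusted p = 2.64e-22). Its median was 189.3 CPM in the 54 animals low for Nnt, 221.6 CPM in the middle animals and 290.01 CPM in the 19 high animals. The 3 ranges overlapped, with 109.1 to 256.1, 117.1 to 441.97 and 215.8 to 562.6 CPM. In the 8 animals below the Nnt gap Idh2 was 120.1 to 238.2 CPM, and without them the slope was 0.39 (adjusted p = 8.48e-25).

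The other 4 of the top 5 were Ldhb, Acss1, Hadhb and Slc25a34. Ldhb, the heart-type lactate dehydrogenase subunit, had a slope of 0.32 (SE 0.03, adjusted p = 5.6e-17). Acss1, which makes acetyl-CoA from acetate in mitochondria, had a slope of 0.29 (SE 0.03, adjusted p = 2.34e-16). Hadhb, a subunit of the trifunctional protein of fatty acid oxidation, had a slope of 0.15 (SE 0.02, adjusted p = 7.7e-12). Slc25a34, a carrier of the mitochondrial inner membrane, had a slope of 0.34 (SE 0.04, adjusted p = 3.7e-11), which was 0.0899 and not called with 10 principal components as covariates (adjusted p = 0.297). The slopes of all 5 were positive within each of the 5 generations and each of the 5 blocks. Slow-fibre markers moved the same way, with positive slopes called for 4 of 4 and a median slope of 0.29, against a median of -0.00281 over all genes. With the marker scores as covariates Idh2 remained first with a slope of 0.23 (adjusted p = 2.59e-13), and 2.67% of genes were called. With 10 principal components as covariates 36 genes were called, of which 30 were among the 913, and Idh2 was again first with 0.23 (adjusted p = 1.47e-12).

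Of 14 genes of mitochondrial NADPH supply and peroxide removal, Idh2 alone was called against Nnt (4.85% of all genes were), and the median slope was 0.0149, against -0.00281 over all genes. The next by p were Prdx3, the mitochondrial peroxiredoxin, with 0.03 (adjusted p = 0.109), Nadk2, the mitochondrial NAD kinase, with 0.05 (adjusted p = 0.2), Txn2, mitochondrial thioredoxin, with 0.04 (adjusted p = 0.203), and Prdx5 with 0.04 (adjusted p = 0.274). Between the sexes, 3 of the 14 were higher in males (Me2, Prdx5 and Sod2) and 5 lower (Me3, Glud1, Nadk2, Txnrd2 and Gpx1), while Idh2 differed by 0.00236 (log2, adjusted p = 0.954). Over all tested genes, 24.4% were higher and 30.6% lower in males. Gpx1, the cytosolic glutathione peroxidase, was the only one of the 14 called between generations (adjusted p = 0.00172, with 7.56% of all genes called).

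Few markers of other cells passed the test. Of all genes, 4.85% were called against Nnt, 3.08% against Glo1 and 7.09% against Wdfy1. Beside the slow-fibre markers, 1 of 6 general fibre markers had a positive and 1 a negative slope on Nnt, and no marker of adipocytes, macrophages, erythroid cells, Schwann cells or endothelium was called. On Glo1, 2 fibre markers were called with a positive and 1 of 3 endothelial markers with a negative slope, and on Wdfy1 1 of 5 adipocyte markers with a positive slope (Lep, the gene of leptin, 0.44, adjusted p = 0.045). Slopes that did not pass the test could be large. All 5 adipocyte markers had negative slopes on Glo1, with a median of -0.21 and a lowest adjusted p of 0.0811. The median of the 4 erythroid markers on Glo1 was -0.16, and Lep had -0.31 on Nnt (adjusted p = 0.107). With the slow-fibre and adipocyte scores as covariates the genes called against Glo1 were 0.653% of all, against 3.08% without them. The part of cell composition in the other results was not tested beyond the marker scores used as covariates.

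Near Nnt, 6 of the 18 tested genes whose starts lay within 4 Mb were called (33.3%), against 4.82% of the genes elsewhere. Ccl28, a mucosal chemokine, at 0.288 Mb, had a slope of 0.51 (SE 0.07, adjusted p = 2.06e-08). Its median was 0.181 CPM in the animals low for Nnt, 0.506 CPM in the middle and 0.722 CPM in those high for Nnt, and the lowest low and middle animals had a count of 0. Ccl28 was higher in males (log2 difference 1.09, edgeR, adjusted p = 6.74e-08), which is opposite to Nnt. 4833420G17Rik, at 0.127 Mb, had a negative slope of -0.25 (SE 0.07, adjusted p = 0.0155), as had Gm9752, which overlaps it, with -0.10 (SE 0.03, adjusted p = 0.00893). In the 8 animals below the gap 4833420G17Rik was 6.84 to 11.998 CPM, and its range over the 54 low animals was 1.77 to 18.6 CPM. Gm17509 at -2.12 Mb had a slope of 0.10 (adjusted p = 0.00274), Parp8 at -2.48 Mb -0.07 (adjusted p = 0.0191) and Mrps30, a mitochondrial ribosomal protein gene at -0.957 Mb, -0.07 (adjusted p = 0.0229). The nearest genes Paip1, at 0.0931 Mb, and Fgf10, at -0.666 Mb, were not called (slopes 0.02 and -0.07, adjusted p = 0.686 and 0.267). Ccl28 was called under all alternatives over the 5 generations and in each sex alone (slope 0.38 in females and 0.65 in males), and not within any single generation, where its slope was 0.35 to 0.77. Of 16 alternatives, the call was kept in 11 for Ccl28, 10 for Gm9752, 9 for Gm17509, 8 for Parp8, 6 for 4833420G17Rik and 5 for Mrps30, whose slope was positive within generation 21 and blocks 1 and 5. For low genes the slope depended on the scale, and that of Ccl28 was 1.52 on log2 CPM with a prior count of 0.5. All 6 were called without the 5 libraries against their label. Without the 8 animals below the gap, 4 of the 6 were called, and the slope of 4833420G17Rik was -0.18 (adjusted p = 0.175).

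Glo1 had a flat distribution of ordinary width, with an SD of 0.461 on the log2 scale, and 55.5% of all tested genes had a smaller one. Its level ran from 75.3 to 318.3 CPM with a median of 147.4 CPM, and the middle 90% of animals spanned 90.6 to 254.1 CPM. The log2 level had a skewness of 0.05 and an excess kurtosis of -0.76, which is flatter than a normal curve. Its bimodality coefficient of 0.447 was higher than that of 84.1% of tested genes, but the density had no inner valley and there was no gap. The largest inner gap was 0.0816 of the SD, and 0.313% of tested genes had a smaller one. A mixture of 2 normal curves was preferred over a single curve by the Bayesian information criterion, with means of 122.0 CPM for 55.3% of animals and 196.3 CPM for 44.7%. Both curves overlapped strongly, so animals between them could not be assigned to either.

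Little of the spread of Glo1 went with sex or generation. The mean was 160.5 ± 53.7 CPM (SD) over all females and 157.01 ± 49.01 CPM (SD) over all males, a log2 difference of -0.03 (SE 0.04, edgeR, adjusted p = 0.543), and of -0.03 without the 5 libraries against their label (adjusted p = 0.541). Median levels were 160.03, 146.5, 142.4, 152.1 and 147.7 CPM in generations 17, 18, 19, 21 and 23, with a range of fitted means of 0.15 (log2, edgeR, adjusted p = 0.364). Sex accounted for 0.0452% of the variance of the log2 level, generation for 1.73% and block for 1.35%. At 1.5-fold from the median, 48 animals were low (10.1%, 95% Clopper-Pearson interval 7.56 to 13.2%) and 72 were high (15.2%, 12.1 to 18.7%). No animal was more than 2-fold below the median, and 6 were more than 2-fold above it.

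The ends of the Glo1 distribution were uneven over the generations without passing the adjusted threshold. Low animals made up 7.45, 16.1, 14.1, 9.68 and 3.16% of generations 17, 18, 19, 21 and 23, which is 7, 15, 14, 9 and 3 animals. High animals made up 20.2, 17.2, 13.1, 8.6 and 16.8%, which is 19, 16, 13, 8 and 16 animals. The permutation test of both shares together gave p = 0.03 and p = 0.0899 adjusted over the 3 genes. Low animals were 25 females and 23 males, and high animals 40 females and 32 males (p = 0.474).

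The gene most closely related to Glo1 lay near it. Against Glo1, 580 genes were called (3.08%), 1.54% of all with a positive and 1.54% with a negative slope. Of the 170 tested genes within 4 Mb, 43 were called (25.3%), 20 with a positive and 23 with a negative slope, against 2.88% elsewhere. The share called fell with distance, from 36.8% of 19 genes within 1 Mb to 11.3% of the genes at 4 to 8 Mb and 3.73% of 134 genes beyond 32 Mb on chromosome 17. Of the 20 genes with the largest t, 17 were on chromosome 17, and 11 of these lay within 4 Mb.

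Btbd9, a BTB domain gene linked to restless legs in people, came first, with a slope of 0.28 (SE 0.02, adjusted p = 7.02e-35) and its start at -0.369 Mb. Starts are the lower coordinates of genes on either strand. Btbd9 reaches up to 30576488, just below the start of Glo1 at 30584936. Its median was 12.9 CPM in the 48 animals low for Glo1, 14.7 CPM in the middle animals and 17.2 CPM in the 72 high animals, with ranges of 8.68 to 15.6, 7.53 to 21.7 and 13.6 to 22.4 CPM. Low and high animals overlapped only between 13.6 and 15.6 CPM. The slope was 0.22 to 0.31 within the 5 generations and 0.25 to 0.31 within the 5 blocks. It was 0.29 in females and 0.26 in males, and Btbd9 had the largest t in each of the 11 alternatives that were ranked, none of which was a single generation or block. Gm9874, which lies inside Btbd9 at -0.1 Mb, also had a positive slope (0.12, SE 0.02, adjusted p = 3.85e-07) at a median of 0.0559, 0.0912 and 0.111 CPM in low, middle and high animals.

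Dnah8, an axonemal dynein that overlaps Glo1, was not called (slope 0.08, SE 0.07, adjusted p = 0.629), and its level ran from 0.0606 to 28.8 CPM. Its slope was negative within females and within generations 19 and 23, and none of these passed the test. On the other side, Abcg1, a cholesterol transporter at 0.473 Mb, had a slope of -0.17 (SE 0.03, adjusted p = 7.61e-04). Further genes of the region went both ways. Taf11, a subunit of the general transcription factor TFIID at -2.68 Mb, had a slope of -0.11 (SE 0.01, adjusted p = 8.09e-11), and Anks1, which overlaps it, -0.16 (SE 0.03, adjusted p = 7.9e-06). Nudt3, a phosphatase of inositol pyrophosphates at -3.01 Mb, had -0.09 (SE 0.01, adjusted p = 2.78e-06) and Trp53cor1, a long noncoding RNA at -1.53 Mb, -0.13 (SE 0.02, adjusted p = 5.65e-05). Gm10045 at -1.28 Mb had 0.20 (SE 0.03, adjusted p = 6.78e-09), Gm4134 at 3.28 Mb -0.24 (SE 0.03, adjusted p = 4.38e-08) and Gm20522 at 4.54 Mb -0.27 (SE 0.03, adjusted p = 1.07e-10). Of 16 alternatives, the call of Abcg1 was lost in 7 and its sign changed in another, and the calls of Nudt3, Anks1 and Trp53cor1 were each lost in 6 and that of Taf11 in 4. Gm10045, Gm4134 and Gm20522 are predicted genes at mean levels of 0.21, 0.19 and 1.18 CPM, and on log2 CPM with a prior count of 0.5 their slopes were 0.98, -1.41 and -0.54.

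The other genes of methylglyoxal handling moved little with Glo1. Of 13 genes, Park7, a protein deglycase linked to Parkinson's disease, was called with a slope of 0.06 (SE 0.02, adjusted p = 0.043), while 3.08% of all genes were called, and the median slope of the list was 0.0162 against -0.00254 over all genes. Hagh, glyoxalase 2, which completes the pathway, had a slope of 0.03 (adjusted p = 0.308). Akr1b3, aldose reductase, had 0.06 (adjusted p = 0.0615), Tpi1, the triosephosphate isomerase whose substrates give rise to methylglyoxal, 0.04 (adjusted p = 0.164) and Ager, the receptor for glycated proteins, -0.04 (adjusted p = 0.301). Between the sexes 6 of the 13 were higher in males and 3 lower, and none was called between generations, against 24.4, 30.6 and 7.56% of all genes. The call for Park7 was lost under 5 of 11 alternatives, with adjusted p = 0.573 as the highest.

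**Figure D3:**
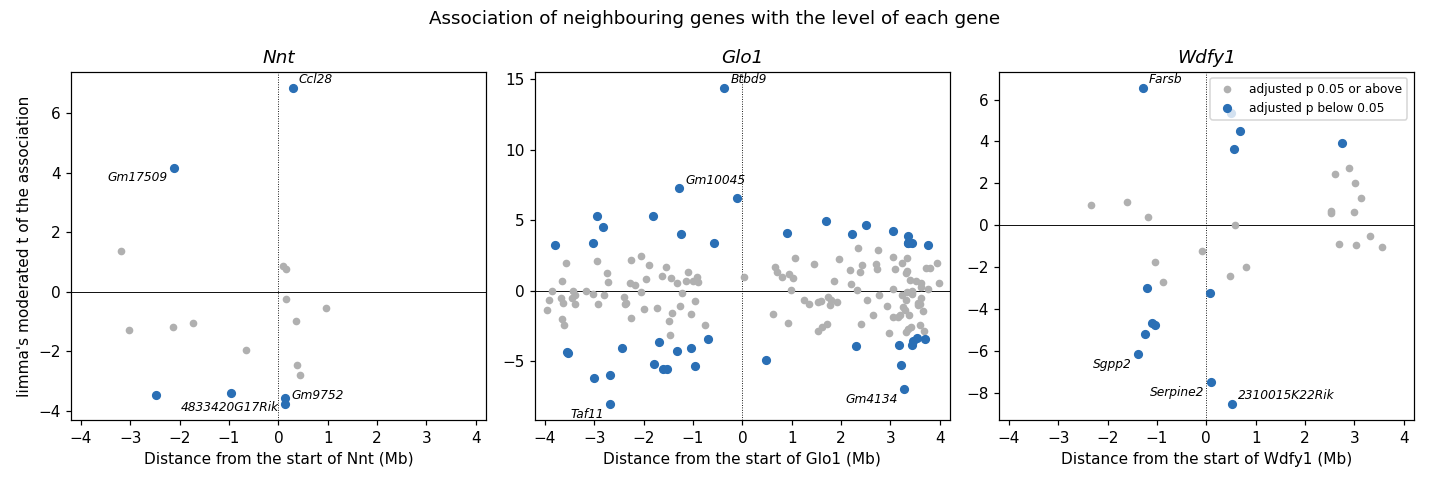
Moderated t of limma (y axis) for genes whose start lies within 4 Mb of the start of each gene (x axis, Mb). Blue points passed adjusted p = 0.05, which were 6 of 18 genes near Nnt, 43 of 170 near Glo1 and 13 of 33 near Wdfy1, and the names mark the 4 with the largest t.

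The density of Wdfy1, unlike those of the other two, had inner valleys. Its level ran from 6.44 to 38.2 CPM with a median of 21.8 CPM, and the log2 level had a skewness of -1.24, lower than all but 3.16% of tested genes. The density had 4 inner valleys, which 11.3% of tested genes match or exceed, while 41.4% have at least 1. The valleys lay at 8.09, 10.7, 13.2 and 17.6 CPM. They divided the animals into 5 groups with 1.48, 2.11, 3.59, 20.5 and 72.4% of the animals, called here groups 1 to 5 from the lowest level to the highest. Groups 1 to 4 held 7, 10, 17 and 97 animals and group 5 all others, with median levels of 7.37, 9.37, 12.5, 15.7 and 23.02 CPM. The animals on either side of each valley had 7.74 and 8.44, 10.5 and 10.9, 13.1 and 13.3, and 17.6 and 17.7 CPM, and the gap at the lowest valley, 0.312 of the SD, was the largest with at least 5 animals on each side. Of all tested genes, 65.8% had a smaller one. The 7 lowest animals had 6.44, 7.19, 7.34, 7.37, 7.38, 7.58 and 7.74 CPM, at totals of 68.1 to 108.8 M counts. They were 2 females and 5 males from 4 of the 5 generations.

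The number of groups depended on how they were found. A wider bandwidth joined groups 3 and 4 into 1 with 24.1% of the animals at 10.9 to 17.6 CPM and left the others as they were. A mixture of normal curves placed 3.71% of animals at 8.56 CPM, 27.1% at 15.6 CPM and the rest, 40.8 and 28.4%, at 23.3 CPM in 2 curves with the same mean to 3 digits. On the log2 scale these means were 3.10, 3.96 and 4.54.

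Wdfy1 was lower in males. Means were 21.9 ± 4.90 CPM (SD) over all females and 19.7 ± 4.85 CPM (SD) over all males, a log2 difference of -0.15 (SE 0.03, edgeR, adjusted p = 2.86e-05). Without the 5 libraries against their label it was -0.15 (adjusted p = 5.19e-05). The difference was negative within all 5 generations (-0.18 to -0.07) and within all 5 blocks (-0.22 to -0.03), but passed the test within blocks 4 and 5 only. Group 5 held 80% of females and 64.9% of males, group 4 held 15.7% and 25.1%, and group 3 held 1.28% and 5.86%. The shares differed between the sexes (permutation test of the chi-square statistic, adjusted p = 0.0014), also without the 5 libraries against their label. When only animals more than 2-fold below the median were counted, which were 7 females and 10 males, they did not (adjusted p = 0.624).

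Between generations Wdfy1 did not differ detectably. Medians were 21.1, 21.1, 22.3, 22.2 and 22.01 CPM in generations 17, 18, 19, 21 and 23, and the range of fitted means was 0.07 (log2, edgeR, adjusted p = 0.849). The 7 animals of group 1 came as 2, 0, 2, 1 and 2 from these generations, and the 10 of group 2 as 0, 5, 1, 2 and 2. Of the 17 animals of group 3, 8 were of generation 17. Group 5 held 68.1, 72.04, 71.7, 75.3 and 74.7% of the generations. None of this passed the test over all groups (adjusted p = 0.276).

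Against Wdfy1, 1335 genes were called (7.09%), 4.09% of all with a positive slope and 3.01% with a negative one, and 13 of the 33 tested genes within 4 Mb were (39.4%, against 7.04% elsewhere). Of the local genes called, 12 lay within 2 Mb, where 20 genes were tested. The number of distant genes depended on the processing, with 3450 genes called in all when Wdfy1 was replaced by its normal scores and 52 with 10 principal components as covariates, of which 10 were local.

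The gene with the largest t, except within females and with normal scores of Wdfy1, was 2310015K22Rik, an unnamed transcript at 0.523 Mb. It had a slope of -0.42 (SE 0.05, adjusted p = 3.54e-12) on the VST scale and of -0.74 on log2 CPM. Genes were not ranked within single generations or blocks. The call of 2310015K22Rik was lost in 3 of 16 alternatives, with adjusted p = 0.791 as the highest. Its median was 2.23, 2.48, 1.76, 1.54 and 0.929 CPM in the 5 Wdfy1 groups from lowest to highest. The ranges overlapped, with 0.842 to 4.33 CPM in group 1 and 0.158 to 3.80 CPM in group 5. Serpine2, a secreted protease inhibitor whose start is at 0.0919 Mb, came next with -0.18 (SE 0.02, adjusted p = 2.99e-09) and medians of 81.03, 84.1, 69.3, 72.5 and 64.3 CPM. All animals of groups 1 and 2 had at least 65.1 CPM, while group 5 ranged from 38.5 to 97.2 CPM. Farsb, a subunit of phenylalanyl-tRNA synthetase at -1.28 Mb, moved with Wdfy1, with a slope of 0.11 (SE 0.02, adjusted p = 8.49e-07) and medians of 35.4, 39.4, 40.2, 41.4 and 42.6 CPM that rose in the order of the groups. Sgpp2, a sphingosine phosphatase that overlaps Farsb, had -0.16 (SE 0.03, adjusted p = 6.24e-06) with a highest level of 0.568 CPM.

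Further neighbours were divided in direction. Fam124b at 0.496 Mb had a slope of 0.19 (SE 0.04, adjusted p = 2.44e-04), 4833412K13Rik at -1.24 Mb -0.15 (SE 0.03, adjusted p = 4.08e-04), Utp14b at -1.04 Mb -0.25 (SE 0.05, adjusted p = 0.00121) and 5730419F03Rik at -1.11 Mb -0.26 (SE 0.05, adjusted p = 0.00148). Mrpl44, a mitochondrial ribosomal protein gene that overlaps Wdfy1, had a slope of -0.05 (SE 0.02, adjusted p = 0.0275), and its median stayed between 17.2 and 17.8 CPM in all 5 groups. It was not called with 10 principal components as covariates, within either sex or without the 7 lowest animals. Ap1s3 at -0.0954 Mb and the potassium channel subunit Kcne4 at -0.886 Mb were not called (-0.03 and -0.09, adjusted p = 0.505 and 0.0735). Farther away, Nod1, an intracellular sensor of bacterial peptidoglycan on chromosome 6, was the only distant gene among the top 5, with -0.14 (SE 0.02, adjusted p = 1.37e-06) and medians of 13.7, 9.85, 11.5, 10.6 and 10.3 CPM from the lowest to the highest group.

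Of 21 genes of endosomal phosphoinositide and Toll-like receptor signalling, 3 were called against Wdfy1, all with positive slopes, while 7.09% of all genes were called and 4.09% with a positive slope. Rab5a, the small GTPase of early endosomes, had 0.10 (SE 0.02, adjusted p = 0.00333), and Eea1, an early endosome tether that like Wdfy1 has a FYVE domain, had 0.11 (SE 0.03, adjusted p = 0.00333). Pikfyve, the kinase that turns phosphatidylinositol 3-phosphate into its bisphosphate, had 0.08 (SE 0.02, adjusted p = 0.0275). With 10 principal components as covariates the slopes of Rab5a, Eea1 and Pikfyve were 0.0254, 0.0229 and 0.0437 (adjusted p = 0.648, 0.703 and 0.409). None of the 3 was called within females, and the call for Pikfyve was lost under 5 of 11 alternatives, with a negative slope within generation 21 (-0.0169) and block 2 (-0.0671). The Toll-like receptor gene Tlr4 had 0.12 (adjusted p = 0.1) and Rab5c -0.04 (adjusted p = 0.0876). The median slope of the list was 0.00582 against -0.00379 over all genes. Between the sexes 8 of the 21 were higher in males and 8 lower, and 1 was called between generations, against 24.4, 30.6 and 7.56% of all genes.

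**Figure D4:**
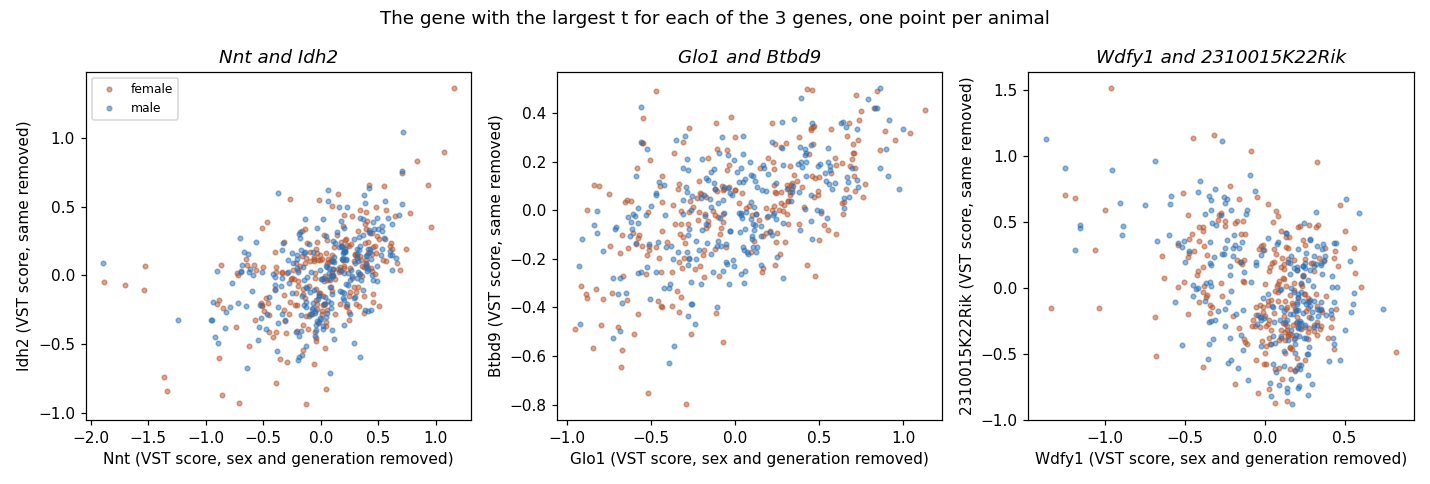
VST score of the gene with the largest moderated t (y axis) against that of Nnt, Glo1 or Wdfy1 (x axis), both after removal of sex and generation, with 1 point per animal. Idh2 rises with Nnt (slope 0.33), Btbd9 with Glo1 (0.28), and 2310015K22Rik falls with Wdfy1 (-0.42), with wide scatter in each.

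No correlation computed among the 3 genes, which lie on different chromosomes, passed the test. Nnt and Glo1 had Pearson r = -0.06 (permutation p = 0.207) and Spearman rho = -0.06 (p = 0.219) over all animals, and r was -0.06 without the 2 animals farthest from the Nnt median. Because the density of Wdfy1 had valleys, its relations were computed within each group and not over all animals. Each group spans only part of the range of Wdfy1, so a relation across the groups was not tested. Over the animals of group 5 r was 0.03 with Nnt (permutation p = 0.584) and -0.02 with Glo1 (p = 0.732). Over the 97 animals of group 4 it was -0.15 (p = 0.138) and 0.10 (p = 0.328). None of the 11 correlations passed adjustment, with adjusted p-values of 0.824 to 0.916 for Pearson's r. In groups 1 to 3, of 7, 10 and 17 animals, the number of animals limits what can be seen. There r with Nnt went from 0.18 to -0.46 in group 1, and r with Glo1 from 0.40 to -0.26 in group 2, without the 2 animals farthest from the median.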

How the data were processed

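The members and gene lists were chosen with earlier results of these data known. According to its methods, the study sequenced polyadenylated RNA in read pairs, and the authors joined both mates, aligned them as single reads to the transcriptomes of all 8 founders and estimated expected counts per gene with EMASE in the GBRS package, so a fragment can count more than once. Versions of these tools are not given in the sources used here. The deposited expected counts are unnormalised. The authors also deposited a VST score, made with DESeq2 according to the submitters' processing notes, which name the build GRCm38, and a table of gene positions.

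Columns were matched to samples by animal name. Libraries DO048 and DO308, and DO309 and DO310, stand in exchanged places in the deposited data. DO048 and DO308 are also among the 5 libraries whose sex-linked genes went against the label. Whether exchanged columns hold each other's data was not tested. DO309 and DO310 are both labelled male of generation 19, so sex-linked genes could not show an exchange there. Each library is 1 animal, and p-values measure the spread between animals, which were treated as unrelated. Kinship, a random effect in the study's genetic mapping of expression, was not fitted. The reading of the third title field as generation is an assumption, since the study's methods name generations 18, 19 and 21 and not 17 and 23, and wave, which the study used as a covariate, was not fitted. Library numbers gave 5 blocks of 96, 96, 96, 95 and 91 libraries, a new block starting after a gap of more than 3 or after 96 numbers.

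In R 4.3.3, the rounded expected counts were passed to edgeR 4.0.16 (filterByExpr, minimum count 10, TMM, quasi-likelihood F-test, sex and generation in the model) and limma 3.58.1 on the VST score. CPM on the log2 scale used a prior count of 2. Benjamini-Hochberg adjustment covered all tested genes, at a threshold of 0.05. Groups were cut at valleys of a kernel density with at least 5 animals on each side, otherwise at 1.5-fold from the median, and tested by 100000 permutations. Mixtures used mclust 6.1.1. Intervals cover counting of animals only. The edgeR and limma fits were tested on simulated data. Alternatives were another scaling, no filter, DESeq2 1.42.0, limma on the VST score, log2 CPM, a prior count of 0.5, normal scores, blocks or 10 principal components as covariates, single sexes, generations and blocks, and omission of 5 libraries. Marker scores as covariates and omission of the animals beyond the largest gap were chosen after seeing the data. Per gene, the text names the top 5 by moderated t, up to 8 called genes within 4 Mb, the nearest 2 on each side and any overlapping gene, and up to 5 of its list by p. Animals carry unique numbers, so no paired analysis was made. Figures used Python 3.11.15 with matplotlib 3.10.9.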

Additional observations from a re-analysis of the deposited data

How the results depend on the processing

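Of the alternatives run for the main results, 81.1% were classed as unchanged. For single tests this meant the same direction and the same side of the threshold. Ranges between generations and chi-square values cannot be negative, so only their side of the threshold could change. For numbers and shares of genes called it meant a similar size, with no direction or threshold, and 10.4% of the alternatives were such counts that moved. A call was lost in 7.08%, and the sign changed in 1.42%. The sex difference of Nnt ranged from -0.28 to -0.11 and that of Wdfy1 from -0.19 to -0.15 over alternatives with all animals or without the 5 libraries against their label, all called, and those of generation were never called for the 3 genes. Within generation 23 (-0.21), block 3 (-0.0903) and block 5 (-0.26) the Nnt sex difference was not called. For Wdfy1 it was not called within generations 17, 18, 19, 21 and 23 (-0.18, -0.0718, -0.17, -0.18 and -0.16) or blocks 1, 2 and 3 (-0.13, -0.0272 and -0.13), where fewer animals entered. For Glo1 the uncalled difference turned positive within generations 18 and 23 (0.0765 and 0.0194) and block 4 (0.14). Genes with a sex-by-generation interaction numbered 100 by edgeR (1123 at an unadjusted p under 0.05), 22 by DESeq2 and 0 by limma (870 unadjusted).

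Of all genes tested, 4.85% were called against Nnt in the fit of the report, 0.191% with 10 principal components, 0.505% within males and 2.67% with the marker scores. The called genes within 4 Mb numbered 2 within females and 1 within males. Against Glo1, 3.08% were called in the report, 0.42% with 10 principal components, 0.122% within females, 0.143% within males, 0.653% with the marker scores and 1.63% without the 10 animals above the largest gap, and 9 within 4 Mb in either sex alone. Against Wdfy1, 7.09% were called in the report, 4.64% on log2 CPM, 4.50% with a prior count of 0.5, 18.3% with normal scores, 0.276% with 10 principal components, 0.0956% within females and 2.29% within males, and within 4 Mb 2 genes within females and 7 within males. Fewer animals entered the fits of 1 sex, and the cause of the other changes was not tested.

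The sexes no longer differed in their shares of low and high Nnt animals with the other kernel bandwidth (chi-square 2.10, adjusted p = 0.254), the mixture groups (4.91, 0.0556) or 2-fold boundaries (2.98, 0.624), all of which merge or shrink the high group, nor in those of Wdfy1 with 2-fold boundaries (0.498, 0.624).

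Slopes were tested within single generations for neighbouring genes and were not tested within blocks. Among the fits with a test, slopes that changed sign were not called where they did so. On Nnt these were Paip1 with 10 principal components, within females and within generations 21 and 23 (-0.00831, -0.0103, -0.0600 and -0.0179), Prdx3 with 10 principal components (-0.000379), Txn2 within males (-0.0134), Mrps30 within generation 21 (0.0386) and Fgf10 within generation 23 (0.0108). On Glo1 these were Dnah8 within females and generations 19 and 23 (-0.0320, -0.0456 and -0.0647) and Abcg1 within generation 21 (0.00955). On Wdfy1 these were Ap1s3 within females and generation 17 (0.00967 and 0.00859), Mrpl44 within generation 21 (0.00717) and Kcne4 within generation 23 (0.0675). Slopes within blocks, and within generations for distant genes, had no test and changed sign for further genes, such as Dnah8 in block 2 (-0.112), Tlr4 in block 3 (-0.125), Ager in generation 21 (0.080) and Prdx5 in generation 18 (-0.068). Besides the genes given in the report, the slopes of Gm17509, Gm9752, Gm9874, Trp53cor1, Sgpp2, Fam124b, 4833412K13Rik and 5730419F03Rik were more than 1.5-fold larger on log2 CPM. No paired analysis was possible because animal numbers are unique to 1 group. Depth did not limit the 3 genes, whose lowest level was 6.44 CPM, but neighbours under 1 CPM rest on few reads.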

Other observations

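Levels of single libraries whose sex-linked genes went against the label are given as values only. Nnt was 159.04, 145.7, 153.9, 200.5 and 239.1 CPM in DO048, DO153, DO193, DO308 and DO347, and Wdfy1 was 21.2, 22.7, 10.9, 16.2 and 21.1 CPM. DO347, labelled female, was among the 19 animals high for Nnt.

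Some genes of 1 list were called against another of the 3 genes. Tpi1, the glycolytic triosephosphate isomerase, had a negative slope on Nnt (-0.06, limma, adjusted p = 0.0293), as had the signalling adaptor Traf3 (-0.07, adjusted p = 0.0168), where 4.85% of all genes were called. Txn2, mitochondrial thioredoxin, had a slope of -0.09 on Wdfy1 (adjusted p = 0.00379) and Nadk2, the mitochondrial NAD kinase, 0.11 (adjusted p = 0.0119), while neither was called against Nnt. Gpx4, the peroxidase of membrane lipids, had -0.08 on Wdfy1 (adjusted p = 0.0481), and Akr1a1, an aldehyde reductase, -0.05 (adjusted p = 0.0202). Zfyve9, a FYVE domain protein, had 0.06 on Glo1 (adjusted p = 0.0487), where 3.08% were called. These genes were chosen after their values were seen, and the share of all genes called against Wdfy1 was 7.09%.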
